A study of Mus musculus with 6 samples.

Results

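Endoneurial-like fibroblasts of the mouse sciatic nerve were described in single-cell RNA-seq libraries of mice killed at month 2 after PSNL (partial sciatic nerve ligation) or sham surgery. They were picked by their own transcripts. A barcode was taken as a cell with at least 1000 unique molecular identifiers (UMIs, each standing for 1 captured RNA molecule) and under 10% mitochondrial UMIs. It was gated as a fibroblast with at least 2 UMIs of Pdgfra, Lum and Serpinf1 together and none of Sox10 (Schwann cells), Cdh5 (endothelium) or Myh11 (smooth muscle). UMIs of 4 gene sets were then summed: A was Pi16, Dpp4, Sema3c and Smpd3, B was Cilp, Comp, Sfrp4 and Itgbl1, C was Cxcl13, Cxcl14, Ccl19 and Fgf10, and D was Angptl7, Sox9, Osr2 and Abca6. A cell belonged to the population when D was at least 3 and larger than A, B and C. This gave 903 cells among 5094 gated fibroblasts and 10042 cells of the month 2 libraries. The same gate gave 1212, 1462 and 646 cells for A, B and C, which together served as the other gated fibroblasts, and 871 cells with no class. Because the D genes made the class, every comparison of these cells with the other gated fibroblasts is a description of the gate and not a test.

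All groups were adult C57BL/6J wild-type mice with no transgene. In PSNL part of the left sciatic nerve was tied, while in sham surgery the nerve was exposed and left alone. Each library pooled the ipsilateral nerve pieces of 4 mice, males and females in equal number, from which live nucleated cells without myelin, CD45 or Ter119 label were sorted for 10X Chromium 3′ version 3 sequencing. Batch 1 held 1 sham and 1 PSNL library at month 2, and batch 2 held another of each and 1 PSNL library at day 5. The sham counterpart of day 5 was not analysed here. With 2 libraries per group at month 2, p-values rest on the spread between these pools and not between mice. For the interaction below, which compares the PSNL effect between classes, that spread was taken over genes together. A gene's own spread between pools had no weight in those p-values. Values are given in the order sham and PSNL of batch 1, then sham and PSNL of batch 2.

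The nerve is wrapped by an outer epineurium, by a perineurium around each fascicle, and, inside the fascicle, by the endoneurium, the loose matrix in which axons, Schwann cells and capillaries lie. Endoneurial fibroblasts make that matrix, and in mice many of them descend from the neural crest rather than from mesoderm. Sox9 is a transcription factor of neural crest and cartilage, Osr2 is a zinc finger transcription factor of limb and joint mesenchyme, Angptl7 is a secreted angiopoietin-like glycoprotein, and Abca6 belongs to a cluster of ABCA lipid transporter genes.

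The population held 111, 95, 417 and 280 cells. Their median depths were 3397, 2283, 3652 and 4074.5 UMIs per cell, and their UMIs summed to 418709, 265904, 1653263 and 1264195. The PSNL library of batch 1 was thus the smallest and the shallowest. The libraries themselves held between 4099617 and 19557393 UMIs over 55421 gene identifiers. Between 0 and 3 cell barcodes were shared by any 2 of the 5 libraries, and none of them was a member of the population. Scrublet marked 33 of the 10042 cells as doublets, a share so low that it cannot be said to have worked, and 2 of them were members.

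The 4 gate genes did not come together in most cells. Of the 903 members, 113 carried UMIs of 1 of these genes, 356 of 2, 297 of 3 and 137 of all 4. Abca6 was found in 76.5% of members, Sox9 in 73.6%, Osr2 in 54.3% and Angptl7 in 46.3%. The median D count was 8 and the highest 157, and 144 cells stood at the threshold of 3.

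Levels below are CPM, the UMIs of a gene scaled to the same total in every sum of a class and library. They follow 3′ tags and are compared within a gene, not between genes. Angptl7 (chromosome 4, 148495183 to 148500460 of GRCm38, minus strand, inside Mtor on the opposite strand) stood at 2534, 1087, 1618 and 799.7 CPM in the population, and at 53.7, 10.4, 28.3 and 42.1 CPM in the other gated fibroblasts. Both sham libraries lay above both PSNL libraries, although Angptl7 helped to choose the cells. Sox9 (chromosome 11, 112782224 to 112787760) stood at 759, 936, 749 and 639 CPM, and the PSNL and sham libraries overlapped. Osr2 (chromosome 15, 35296098 to 35303305) stood at 408, 409.9, 279 and 312 CPM and Abca6 (chromosome 11, 110176820 to 110251776) at 943, 602, 799 and 532 CPM. Of these 3 genes, Abca6 was the one with both sham libraries above both PSNL libraries.

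The 250 bases before the RefSeq start of Angptl7 are shown because this gene names the population. They lie at chr4:148500463-148500712 of GRCm38.p6 and are read on the minus strand, 5′ to 3′, with capitals for AACAAT, the letters of a core element that Sox factors bind.

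Angptl7: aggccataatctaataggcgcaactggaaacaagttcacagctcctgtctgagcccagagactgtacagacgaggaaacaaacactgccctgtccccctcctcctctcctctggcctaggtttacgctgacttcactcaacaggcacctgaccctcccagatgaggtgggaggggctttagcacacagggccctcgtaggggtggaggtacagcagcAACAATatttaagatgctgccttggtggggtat

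AACAAT was searched on both strands and occurs once here, 33 bases before the start, while 9.42% of 32851 RefSeq mouse promoters of the same length hold it. A match of letters describes the sequence and is not a binding site.

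**Figure D1:**
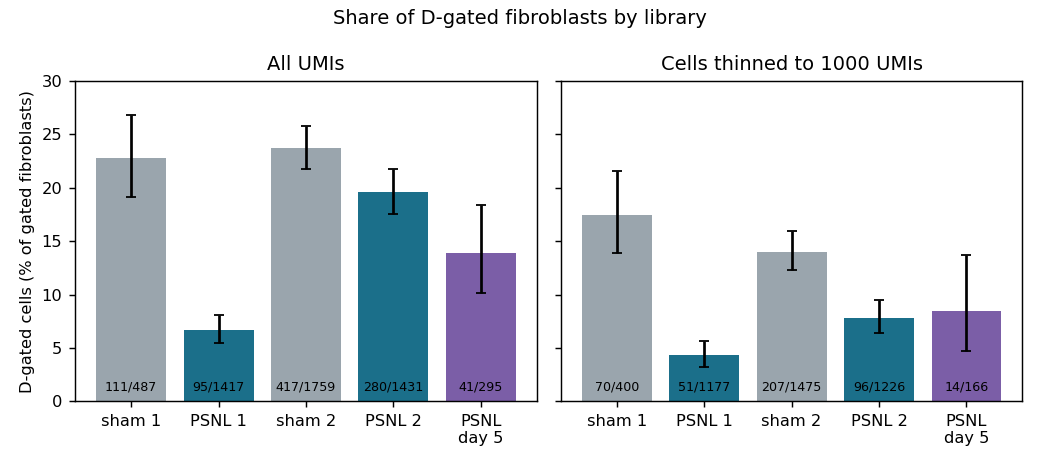
Share of endoneurial-like (D-gated) fibroblasts among all gated fibroblasts by library, in percent, with all UMIs on the left and with each cell thinned to 1000 UMIs on the right. Bars are shares, lines are 95% Clopper-Pearson intervals and the counts stand in each bar: the sham bars reach 22.8% and 23.7%, and the PSNL bar of batch 1 stops at 6.70%.

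In batch 1 they made up 22.8% of the gated fibroblasts after sham surgery and 6.70% after PSNL (95% Clopper-Pearson intervals 19.1 to 26.8 and 5.46 to 8.13). In batch 2 they made up 23.7% and 19.6% (21.7 to 25.8 and 17.5 to 21.7). Both PSNL libraries lay below both sham libraries, and PSNL minus sham was -16.1 percentage points in batch 1 and -4.14 in batch 2. The mean was 23.2% for sham and 13.1% for PSNL (n = 2 each), and a two-sided exact permutation test gave p = 0.333, the smallest that 2 against 2 libraries allow. With each cell thinned to 1000 UMIs the shares were 17.5%, 4.33%, 14.0% and 7.83%. Without the PSNL library of batch 1 the difference of the means was -3.68 percentage points, and without the PSNL library of batch 2 it was -16.5, against -10.1 with all 4. In the day 5 PSNL library, which has no control here, 41 of 295 gated fibroblasts met the gate, a share of 13.9% (10.2 to 18.4). The intervals cover counting error only. The share depends on the sort, on the level of the gate genes in each cell and on how many other fibroblasts each pool held. Fewer endoneurial-like cells, lower gate genes in the same cells and more of the others cannot be told apart. The median D count of members was 11, 6, 8 and 7, and the gated fibroblasts with no class numbered 27, 229, 371 and 244.

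The endoneurial name was set beside markers that the gate did not use, from a list chosen with earlier results of these data known. Of 7 such markers, 6 were expressed highly enough to be tested against the other gated fibroblasts, and all 6 were higher, with a median log2 fold change of 3.86 against -0.03 over all genes. Over all genes, 28.3% of 12269 tested were called different between the classes at an adjusted p below 0.05 in edgeR (Benjamini-Hochberg), so a call alone says little here. Apod, a secreted lipocalin that carries lipids, stood at 35110, 40737, 26802 and 37113 CPM in the population and at 1786, 1896, 2216 and 1973 CPM in the other gated fibroblasts. Smoc2, a calcium-binding protein of basement membranes, stood at 4129, 2640.1, 3988 and 3448 CPM against 252, 218, 355 and 389.9 CPM. For both genes the lowest endoneurial-like library lay far above the highest of the others. Etv1, an ETS transcription factor, stood at 269.9, 369, 182 and 173 CPM against 11.1, 19.1, 9.51 and 14.9 CPM. Wif1, a secreted Wnt inhibitor, was scarce at month 2, with 7.16, 0, 4.23 and 7.12 CPM, and reached 94.7 CPM in the day 5 library. Coch had close to no UMIs in either class and was not tested. Abca8a and Abca9, given below, belong to the list too and lie beside the gate gene Abca6. The list therefore describes the name and does not test it.

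Markers of the outer sheath went the other way. Of 9 epineurial markers outside the gate, 8 were lower and 0 higher, with a median log2 fold change of -2.58. Clec3b, a secreted tetranectin, stood at 368, 399, 377 and 255 CPM in the population and at 2155, 2452, 2056 and 1949 CPM in the other gated fibroblasts. Dpt (dermatopontin), a matrix protein found in most fibroblasts, stood at 38.2, 109, 52.0 and 72.0 CPM against 1399, 1808, 1381 and 1964 CPM. The epineurial-type genes were thus low but not at 0. Of 8 perineurial markers tested, 2 were higher and 0 lower. Cldn1, the tight junction claudin of the perineurium, stood at 16.7, 67.7, 45.4 and 79.9 CPM against 0, 8.17, 5.89 and 7.62 CPM, while Slc2a1, its glucose transporter, stood at 11.9, 0, 12.1 and 11.1 CPM. Cells with a UMI of either gene numbered 7, 11, 54 and 63, so 135 of the 903 members.

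Markers of other cell types were present at unequal levels. The 6 immune markers summed to 4.78, 3.76, 7.26 and 7.91 CPM, and none was tested. The 6 endothelial markers summed to 253, 113, 102.8 and 109.9 CPM, and both of the 2 tested were lower than in the other gated fibroblasts. The mural markers summed to 418, 508, 357 and 454 CPM in the population and to 156, 167, 259 and 204 CPM in the others, and of 7 tested 2 were higher and 2 lower. The Schwann cell markers summed to 592, 523, 524 and 693 CPM against 214, 289.6, 446 and 409 CPM, and of 9 tested 4 were higher and 1 lower. Both sums were higher in every endoneurial-like library than in any library of the others, and their part in the other differences was not tested. Cdh19, a cadherin of Schwann cell precursors, stood at 117, 75.2, 79.2 and 78.3 CPM against 2.78, 1.91, 3.17 and 2.90 CPM, and Ngfr, the low-affinity neurotrophin receptor, at 93.1, 45.1, 55.0 and 43.5 CPM against 0.463, 8.72, 5.21 and 8.71 CPM.

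The genes that set the population apart most were of several kinds. Between the classes, 1715 genes (14.0%) were called higher and 1752 (14.3%) lower outside the gate. Among the 12 named higher genes, Gfra1, the GDNF co-receptor, stood at 222, 165, 163 and 199 CPM against 0, 0.545, 1.59 and 2.00 CPM, a log2 fold change of 7.16 ± 0.25 (SE). Foxs1, a forkhead transcription factor, stood at 363, 278, 277 and 255 CPM against 4.63, 2.18, 2.94 and 2.00 CPM (6.71 ± 0.19). Rasgrp2, an exchange factor that activates Rap1, stood at 898, 414, 641 and 498 CPM against 3.70, 7.08, 11.8 and 7.81 CPM (6.21 ± 0.22). In each of the 3 genes every endoneurial-like library lay above every library of the others by more than an order of magnitude. Tenm2, a teneurin adhesion protein, stood at 179, 158, 211 and 210.4 CPM (6.15 ± 0.24). A2m, the protease inhibitor alpha-2-macroglobulin, stood at 258, 75.2, 79.8 and 59.3 CPM (7.61 ± 0.32), with the sham library of batch 1 above the rest. Ctxn3, a small membrane protein gene, had a log2 fold change of 6.23 ± 0.41.

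The remaining named higher genes were close to absent from the other gated fibroblasts. Spata18, which acts in mitochondrial quality control, had 60 UMIs in the population and 0 in the others, at least 87.5-fold higher with a floor of 3 UMIs over the whole group. Col9a2 had 245 UMIs against 3, a ratio of CPM of 357 (95% counting interval 121 to 1744), and Col2a1 98 against 1, a ratio of 429 (75.1 to 17099). Gm11681, a noncoding gene that lies next to Sox9 on the opposite strand, had 85 against 1, a ratio of 372 (64.9 to 14853). Chn1, a Rac GTPase-activating protein, had 100 against 3, and Defb36, a beta-defensin gene, 65 against 2. These few UMIs leave the ratios wide, while the sign was the same in every library. The named higher genes had the same direction in the day 5 library for 12 of 12, beside 80.3% of all 1715 genes called higher.

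The 8 named lower genes were near or at 0 in the population. Mfap4, a microfibril protein, had 0 UMIs in the population and 2115 in the other gated fibroblasts, at least 161-fold lower with the same floor. Fmod (fibromodulin) had 0 against 1225, at least 93.4-fold lower, and Wnt10b, a Wnt ligand, 0 against 603, at least 46.0-fold lower. Hs3st1, a heparan sulfate sulfotransferase, had 0 against 419 UMIs and Fam167a 0 against 359, so at least 31.9-fold and 27.4-fold lower. Krtdap and Ccn5 each had 1 UMI against 1417 and 716. Sfrp2, a secreted Wnt modulator, stood at 0, 0, 4.23 and 15.03 CPM against 763, 841, 768 and 1268 CPM. Some of these absences were shared with other classes. Fam167a was at 0 to 2.70 CPM in the B- and C-gated cells and at 25.6 to 77.8 CPM in the A-gated, and Krtdap at 0 to 3.14 CPM against 138 to 507 CPM. Fmod was at 0 to 3.57 CPM in the A- and C-gated cells and at 134 to 251 CPM in the B-gated. All 8 had the same direction at day 5, beside 76.8% of the 1752 genes called lower.

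**Figure D2:**
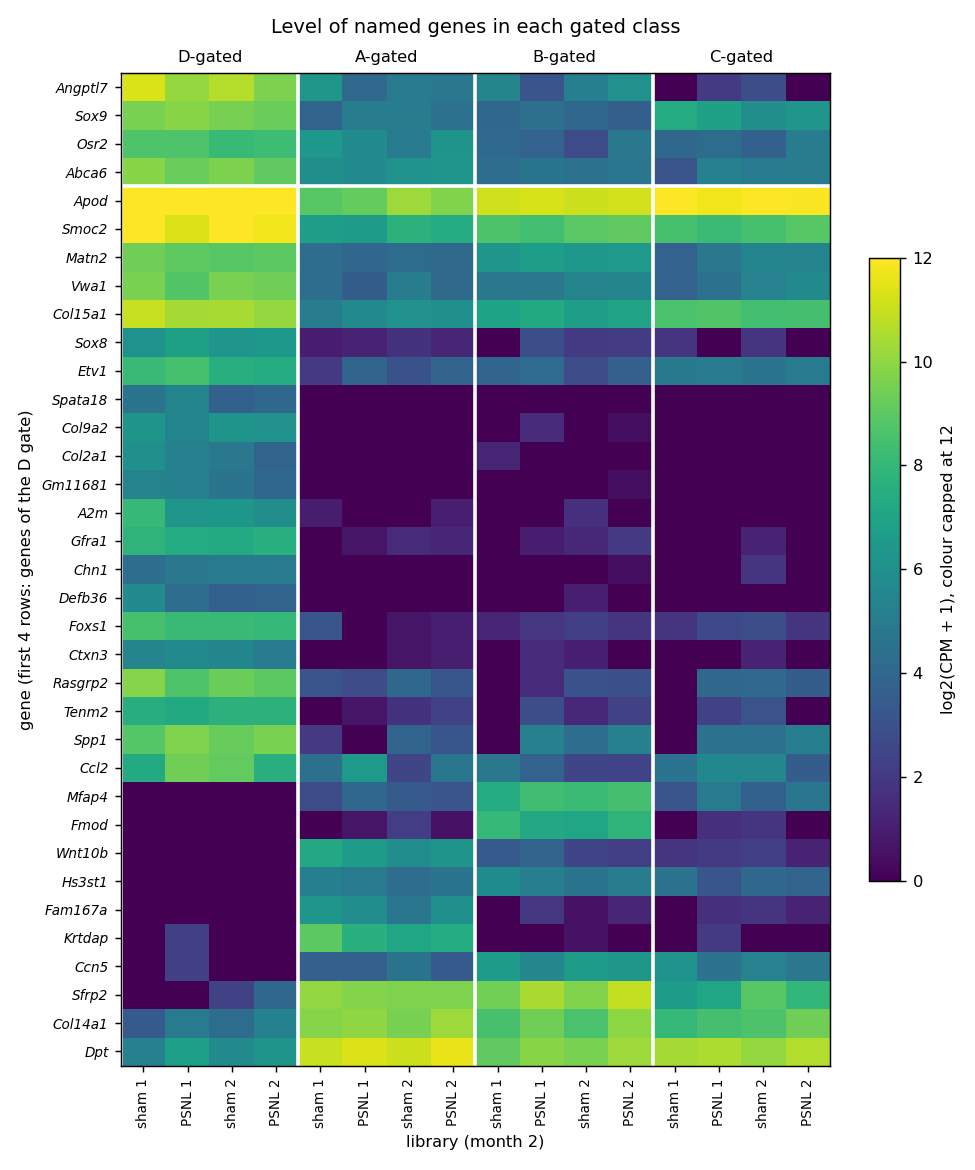
Level of each named gene, as log2 of CPM plus 1 with the colour capped at 12, in the 4 gated classes (D, A, B and C) of the 4 month 2 libraries; the first 4 rows are the genes of the D gate. Genes such as Foxs1 and Gfra1 are bright in the D-gated columns of all 4 libraries, and Mfap4 and Fmod are dark there and bright in B-gated cells.

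Several gene families were followed as lists. Transcription factors of nerve fibroblasts stood out, with 14 of 22 tested higher and 3 lower, and a median log2 fold change of 1.37. Sox8, the relative of Sox9 and Sox10, stood at 69.3, 113, 77.4 and 82.3 CPM against 0.926, 2.45, 2.72 and 2.18 CPM. Sox5 and Sox6, which work with Sox9 in cartilage, were higher by 1.18 ± 0.21 and 4.69 ± 0.43 on the log2 scale. Etv4 (5.31 ± 0.48), Meox1 (3.82 ± 0.18), a homeobox gene, Foxc2 (2.80 ± 0.34) and Tcf4 (1.86 ± 0.14) were higher as well. Osr1, the paralogue of Osr2, was among the 3 lower ones, at 23.9, 18.8, 18.8 and 37.2 CPM against 166, 144, 221 and 164 CPM; Osr2 itself is a gate gene, so its level there was set by the rule. Prrx1 and Klf4 were the others, with log2 fold changes of -2.00 ± 0.15 and -1.81 ± 0.19.

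Cartilage matrix genes were split. Of 10 tested, 6 were higher and 2 lower, with a median of 2.35. Matn2 (matrilin-2), an adaptor protein of pericellular matrix, stood at 671, 515, 466 and 495 CPM against 37.5, 43.3, 51.0 and 54.3 CPM. Col11a1 stood at 134, 56.4, 67.1 and 61.7 CPM against 0.926, 1.91, 4.76 and 10.7 CPM. Fmod and Prg4 were the lower ones. Acan, Col9a1, Matn1, Matn3 and Chad, further genes of mature cartilage, had no UMIs in the population at month 2, so the cartilage list was only partly present.

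Basement membrane genes were higher for 8 of 15 tested and lower for 2, with a median of 0.65. Col15a1, a collagen that links basement membranes to the matrix around them, stood at 2066, 1316, 1378 and 1107 CPM against 128, 182, 129 and 136 CPM. Vwa1, a perlecan-binding matrix protein of nerve, stood at 776, 436, 758 and 674 CPM against 20.8, 18.5, 37.6 and 35.2 CPM. Lama2, the laminin alpha-2 chain of the Schwann cell basal lamina, stood at 611, 361, 486 and 555 CPM against 153, 126, 168 and 163 CPM. In all 3 genes the classes did not overlap. Hspg2 (perlecan) and Col18a1 were higher by 1.38 ± 0.15 and 1.77 ± 0.15, and Lama4 and Lamb2 were lower, at -0.48 ± 0.17 and -0.60 ± 0.14. Among fibrillar collagens and small leucine-rich proteoglycans the counts were reversed, with 14 of 17 lower and 1, Dcn (decorin), higher. Their median was -0.83. Their summed level was still higher in the population in every library, at 73550, 48642, 70421 and 65268 CPM against 42534, 42327, 48221 and 50415 CPM. Lum (lumican), a proteoglycan that the fibroblast gate used, was not in the list. It stood at 11863, 9112, 5855 and 6444 CPM against 629, 1305, 613 and 1115 CPM. Col14a1 (-4.88), Aspn (-5.02) and Col12a1 (-4.41) were the furthest below after Fmod.

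Neighbours of the gate gene Abca6 were compared next. Abca8a, Abca8b and Abca9, which lie beside it on chromosome 11, were higher by 1.29 ± 0.13, 1.40 ± 0.14 and 2.32 ± 0.14, while Abca5 of the same cluster was lower (-0.72 ± 0.25). Of 8 ABCA transporters tested, 3 were higher and 3 lower, with Abca1, the cholesterol exporter, and Abca3 as the other lower ones. Among 7 angiopoietin family genes other than Angptl7, 1 was higher and 5 lower, with a median of -2.69. Angptl4, an inhibitor of lipoprotein lipase, was the higher one (0.88 ± 0.21). Angptl1 stood at 81.2, 45.1, 83.5 and 55.4 CPM against 326, 360.4, 565 and 785 CPM. Apart from Angptl4, none of the 7 was called higher.

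Growth factors and neurotrophic ligands were lower for 11 of 15 and higher for 2, with a median of -2.35. Mdk (midkine) stood at 289, 267, 259 and 314 CPM against 36.1, 144, 133 and 207 CPM, and Bmp7 at 81.2, 56.4, 49.0 and 50.6 CPM against 11.6, 5.18, 3.40 and 5.26 CPM. Both were higher in every endoneurial-like library than in any library of the pooled others, but Mdk in B-gated cells alone stood at 64.7, 292, 178 and 307 CPM and so overlapped the population. Among the pain-related mediators that the study follows, 3 of 5 tested were higher and 0 lower. Spp1 (osteopontin) stood at 456, 812, 593 and 770.5 CPM against 1.39, 16.3, 17.4 and 25.8 CPM. Ccl2, a monocyte chemokine, stood at 160.0, 669, 551 and 188 CPM against 22.7, 53.9, 12.2 and 12.9 CPM, with no order between PSNL and sham. Il6 stood at 0, 18.8, 6.65 and 19.8 CPM against 9.73, 26.7, 14.0 and 9.80 CPM. After thinning to 1000 UMIs, 25.2%, 42.1%, 27.8% and 33.6% of members had a Spp1 UMI, all far above the 2.09% of 907 Sox10 cells with a median of 3131 UMIs (45.0%, 55.8%, 44.6%, 60.4% and 3.09% unthinned).

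Immediate-early genes, which respond to dissociation, were higher for 12 of 15 and lower for 0, with a median of 1.35. They summed to 13279, 19135, 28609.5 and 27321 CPM in the population and to 6404, 10065, 8252 and 8252 CPM in the others. Their part in the other differences was not tested. Ccl2 and Thbs1 (2.04 ± 0.20), which also respond quickly to stimuli, were higher beside them. Of the 11 fibroblast activation genes 1, Thbs1, was higher and 6 were lower, with Postn (periostin) at 0, 41.4, 7.86 and 23.7 CPM against 258, 615, 350.0 and 461 CPM and Lox, a collagen cross-linker, lower at -5.26 ± 0.24. Interferon-stimulated genes were lower for 9 of 11 and higher for 0.

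**Figure D3:**
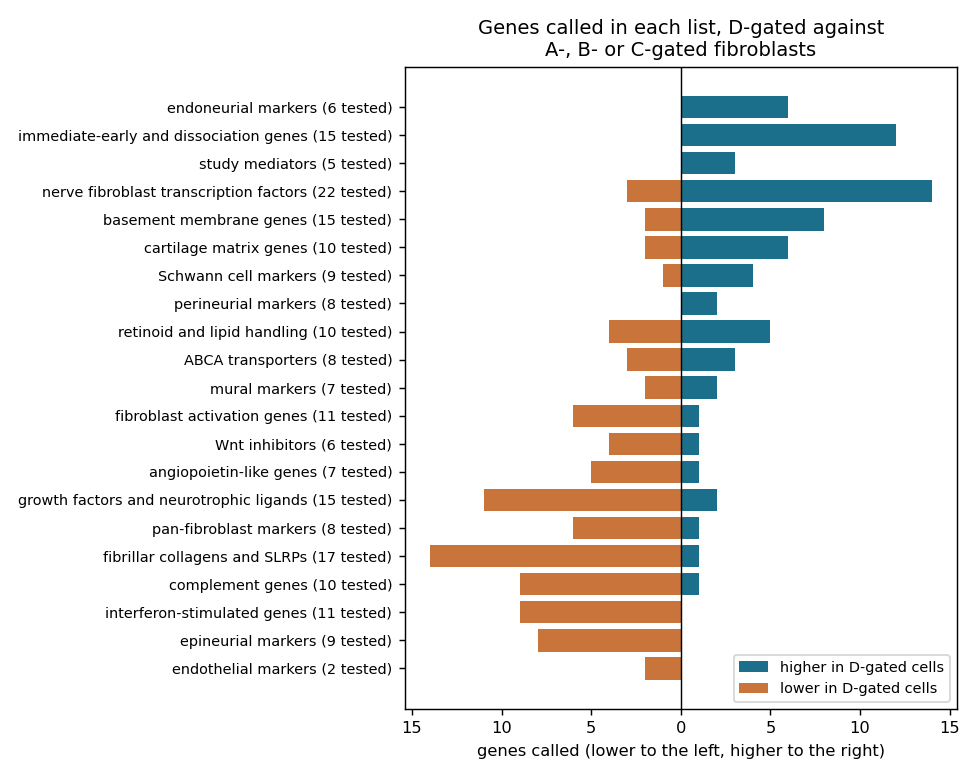
Number of genes of each list, outside the gate, that were called higher (right) or lower (left) in endoneurial-like (D-gated) than in A-, B- or C-gated fibroblasts; over all genes 28.3% were called. All 6 endoneurial markers tested lie to the right, and 14 of 17 fibrillar collagens and proteoglycans lie to the left.

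Members were not uniform along the D count. Over the pooled month 2 cells in which D was the largest sum, Smoc2 went from 2277 CPM at D of 2, just outside the threshold, and 2466 CPM at D of 3, just inside, to 4495 CPM at D of 10 or more. Col15a1 was 899 and 809 CPM on either side of the threshold and 1773 CPM at the top, and Gfra1 was 97.0 and 108 CPM and then 223 CPM. C3 went the other way, with 268 and 416 CPM at the threshold and 111 CPM at the top, and Dpt with 82.8, 131 and 26.6 CPM. The libraries hold different shares of each bin. Within them, C3 at D of 3 to 5, of 6 to 9 and of 10 or more was 216, 11.7 and 18.3 CPM and 646, 488 and 403 CPM in the sham and PSNL libraries of batch 1, and 114, 74.2 and 93.3 CPM and 526, 100.2 and 136 CPM in those of batch 2. C3 was highest at D of 3 to 5 in each library, in as few as 23 cells, and did not fall further from 6 to 9 to the top bin in 3 of the 4. From D of 3 to 5 to the top bin, Dpt went from 232 to 3.66 CPM in the sham library of batch 1. In those of batch 2 it went from 86.4 to 31.1 CPM (sham) and from 181 to 17.9 CPM (PSNL). In the PSNL library of batch 1 it was 97.0, 149 and 90.6 CPM over the 3 bins and so barely fell. In Smoc2, Col15a1 and Gfra1 the 134 cells just outside the threshold were thus close to the 144 just inside, while C3 and Dpt were lower outside than inside. The median depth went along the same axis from 2499 to 4358 UMIs, so a cell's D count and its depth cannot be told apart here. The gated fibroblasts with none of the A, B, C or D genes, 191 cells, had 1478 CPM of Smoc2 and 11113 CPM of Apod.

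**Figure D4:**
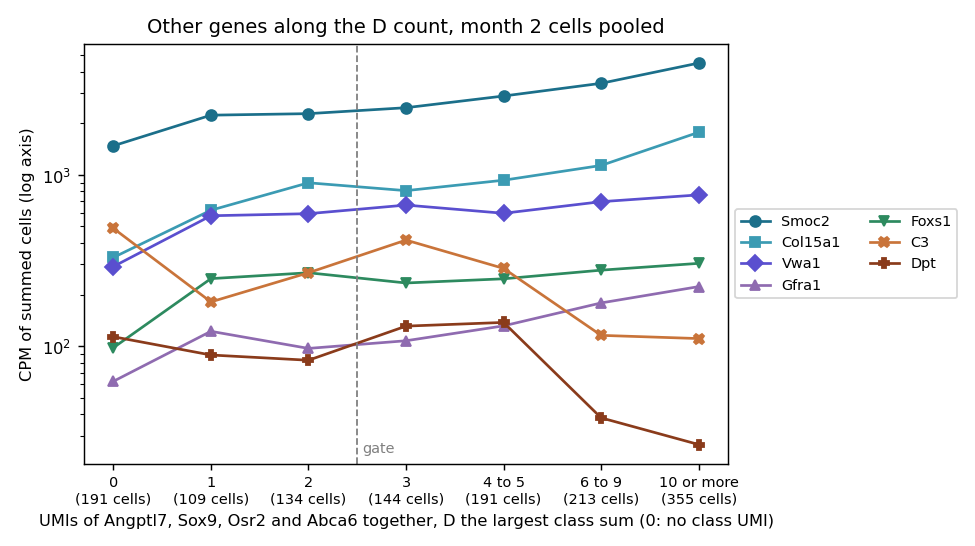
CPM, on a log axis, of 7 genes outside the gate in month 2 cells pooled by their D count, with the number of cells under each bin and the threshold of 3 as a dashed line. Smoc2, Col15a1 and Gfra1 reach their highest values at D of 10 or more (4495, 1773 and 223 CPM), and C3 and Dpt their lowest.

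Members with and without an Angptl7 UMI were then set side by side, 63, 43, 215 and 97 cells against 48, 52, 202 and 183. Foxs1, named above, was present in both. It stood at 382, 514, 346 and 311 CPM with Angptl7 and at 336, 124, 207 and 226 CPM without it. Thbs4, a thrombospondin of tendon and nerve, stood at 1015, 933, 560.4 and 574 CPM with it and at 696, 423, 359 and 403 CPM without it. Both genes were higher with Angptl7 in all 4 libraries. C3 was lower with it in all 4, at 16.4, 457, 32.3 and 149.9 CPM against 85.5, 547, 160.1 and 324 CPM. These subsets come from the same cells that the gate chose, so the values carry no test.

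PSNL was compared with sham within the population to ask how its transcripts differed at month 2. The planned edgeR fit, without a batch term, called 1 of 8396 genes (0.0119%), Igfbp3, and 224 had an unadjusted p below 0.05. C3, C4b, Plac8 and Apoe were not called in it. They passed an alternative fit with the batch as a block and were higher after PSNL in both batches, by 1.58 to 2.77 log2 units. DESeq2, also without the block, called 3, which were Igfbp3, Mgp and C3. With the batch as a block, which pairs the libraries that were sorted, prepared and sequenced together, edgeR called 13 (0.155%), 8 higher (0.0953%) and 5 lower (0.0596%). In the other gated fibroblasts the same fits called 0 and 33 of 13820 genes (0.239% with the block), with 272 at an unadjusted p below 0.05 without it.

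C3, the central complement component, stood at 45.4, 511, 95.6 and 263 CPM in the population. Both PSNL libraries lay above both sham libraries, by a log2 fold change of 2.18 ± 0.32 with the batch block (edgeR, Benjamini-Hochberg adjusted p = 6.87e-04), while without the block the adjusted p was 0.605 in edgeR and 0.00556 in DESeq2. In batch 2 the difference lay mostly in the cells nearest the threshold, with 526 CPM after PSNL against 114 CPM after sham at D of 3 to 5, and with 100.2 against 74.2 CPM at D of 6 to 9 and 136 against 93.3 CPM at D of 10 or more. In the other gated fibroblasts it was much higher and did not follow the surgery, with 3189, 3293, 2614 and 1846 CPM. The PSNL difference in the population was 2.46 ± 0.31 log2 units above that in the others (interaction of class and surgery in edgeR, adjusted p = 3.23e-11). Over the alternative settings this interaction ranged from 1.95 to 6.45. C4b, another complement component, stood at 23.9, 162, 26.0 and 66.4 CPM, a blocked log2 fold change of 1.80 ± 0.34 (edgeR, adjusted p = 0.0162) and an interaction of 2.24 ± 0.36 (adjusted p = 4.50e-07). Of the 10 complement genes tested, 3 had a higher and 1, Cd55, a lower PSNL effect in the population than in the others, beside 0.22% and 0.114% of all genes. Free RNA, summed over the barcodes of 10 to 100 UMIs in each library, held 742, 1087, 906 and 379 CPM of C3, above the level of the population in each library, and 147, 284, 163 and 98.2 CPM of C4b, likewise above it. The interactions of C3 and C4b were also called with the ambient profile subtracted, and were not called without the replicate block. How large a part free RNA had in these levels was not tested.

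Plac8 and Apoe differed in the same direction. Plac8, a small cysteine-rich protein, stood at 0, 117, 22.4 and 104 CPM in the population and at 295, 354, 325 and 266 CPM in the others. The PSNL libraries again lay above the sham libraries, with a blocked log2 fold change of 2.77 ± 0.43 (edgeR, adjusted p = 0.00179, and 0.846 without the block). Its interaction was 2.85 ± 0.37 (adjusted p = 1.05e-10 in edgeR). That interaction was not called with DESeq2, and it was 10.97 without the sham library of batch 2, since the remaining sham sum of the population held 0 Plac8 UMIs. Free RNA held 66.5, 136, 78.3 and 51.9 CPM of Plac8. Apoe, the main lipid carrier released in nerve, stood at 1156, 5652, 2747 and 5472 CPM against 817, 1312, 997 and 704 CPM. It passed with the block (1.58 ± 0.26, adjusted p = 0.00262 in edgeR) and in the interaction (1.50 ± 0.29, adjusted p = 1.96e-04). The interaction of Apoe was not called with DESeq2. In edgeR the call was lost without the sham library of batch 1, at 0.999, and without the PSNL library of batch 2, at 1.08. Free RNA of Apoe was at 388, 988, 1227 and 1487 CPM. In the day 5 library Apoe was at 169.9 CPM, below every month 2 library.

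Further genes passed with the batch block. Higher after PSNL were Igfbp3, Mgp (1.90 ± 0.25), an inhibitor of calcification, Tmem176a (1.64 ± 0.32) and Lpl (1.29 ± 0.25), the lipoprotein lipase. Lower were Lipe (-2.27 ± 0.36), the hormone-sensitive lipase, Rbp4 (-1.38 ± 0.28), the retinol carrier, Gm48600, Gm42826 and mt-Tq. Rbp4 stood at 201, 56.4, 146 and 68.8 CPM and Lpl at 105, 387, 208 and 404 CPM, each with the sham and PSNL libraries apart. Angptl7, a gate gene left out of the counts, had a log2 fold change of -1.16 ± 0.22 in that fit.

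Igfbp3, which binds insulin-like growth factors, was the gene that edgeR called without a block, and it rested on few cells. It stood at 0, 132, 3.63 and 77.5 CPM, a log2 fold change of 5.09 (edgeR, adjusted p = 0.0336; 4.89 with adjusted p = 7.98e-06 in the blocked fit). Its UMIs numbered 0, 35, 6 and 98 and came from 0, 5, 2 and 13 members. The others held 524, 436, 362 and 488 CPM and free RNA 201, 161, 118 and 98.2 CPM. In the members with no UMI of any A, B or C gene, 75, 65, 237 and 143 cells, Igfbp3 stood at 0, 0, 1.16 and 20.6 CPM. Its interaction there was 3.79 and was no longer called (adjusted p = 0.105 in edgeR).

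Genes of the other fibroblast classes were therefore measured in the same sums. The 28 genes that marked those classes most summed to 0.9501%, 2.26%, 1.91% and 1.61% of their level in the others, and the A, B and C genes of the gate to 1.51%, 2.89%, 3.48% and 2.86%. C3 in the population reached 1.42%, 15.5%, 3.66% and 14.3% of its level in the others. The marker genes were chosen for being low in the population and the gate holds down the A, B and C genes, so these shares are a description and no bound on RNA or cells of the other classes. In the members with no A, B or C UMI, C3 stood at 11.2, 342, 24.3 and 224 CPM. The interactions of C3 (3.92, adjusted p = 2.05e-23), C4b (2.09, 0.00316), Plac8 (2.74, 5.08e-06) and Apoe (1.60, 4.31e-06, all edgeR) were still called there. This restriction was chosen after seeing the data. Cldn1 was also higher in the PSNL library of each batch, at a blocked log2 fold change of 1.07 ± 0.34 that edgeR did not call (adjusted p = 0.442). Cells of any class with a UMI of Cldn1 or Slc2a1, 135 of them members, were likewise set apart after seeing the data. Without them the interactions of C3, C4b, Plac8 and Apoe were called as well. After thinning to 1000 UMIs, 0%, 16.8%, 4.56% and 14.3% of members had a C3 UMI, against 1.65% of the 907 Sox10 cells (5.41%, 23.2%, 8.15%, 26.1% and 2.76% unthinned). Thinned likewise, Plac8 was found in 0%, 8.42%, 1.92% and 7.86% of members, against 0.882% of Sox10 cells. C4b was in 0.901%, 13.7%, 1.92% and 4.64% against 7.06%, and Apoe in 36.0%, 78.9%, 53.7% and 73.9% against 58.8%. For C4b and Apoe the Sox10 cells thus lay within the range of the member libraries.

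Over all genes, 41 of 12269 (0.334%) had a PSNL effect in the population that differed from that in the other gated fibroblasts, 27 higher and 14 lower, and 477 had an unadjusted p below 0.05. Of the 27, 21 were lower in the population than in the others. The named ones were Igfbp3 (4.79 ± 0.50, adjusted p = 7.79e-18 in edgeR), Gdf10, Aoc3, Emb and Plac8. DESeq2 called none of these interactions. Without the sham library of batch 2 those of Igfbp3, Aoc3 and Emb were 10.96, 7.80 and 8.53, since the remaining sham sum of the population held 0 UMIs of each. Gdf10, a BMP-type ligand, stood at 2.39, 94.0, 4.84 and 9.49 CPM, so its interaction (3.49 ± 0.53) leaned on the PSNL library of batch 1, without which it was 2.29 and was not called. Aoc3 stood at 0, 33.8, 1.81 and 11.9 CPM and Emb at 0, 52.7, 3.02 and 19.8 CPM. Without that library Aoc3 and Emb were lost too (adjusted p = 0.313 and 0.117 in edgeR), and all 3 were lost in the members with no A, B or C UMI. The others were 42.7%, 39.3%, 34.4% and 33.0% A-gated, 39.0%, 36.5%, 46.8% and 52.1% B-gated and 18.3%, 24.2%, 18.8% and 14.9% C-gated. The part of this mix in the interactions was not tested.

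Among the named genes with a lower PSNL effect were C430049B03Rik, Fdft1, Sc5d and Msmo1. C430049B03Rik, a noncoding transcript on chromosome X (53055046 to 53057190), stood at 54.9, 3.76, 42.9 and 12.7 CPM in the population and at 0.926, 7.36, 2.04 and 14.0 CPM in the others, an interaction of -5.08 ± 0.73 (edgeR, adjusted p = 7.95e-09). The direction was opposite in the classes in both batches.

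Fdft1 (squalene synthase), Sc5d and Msmo1 are enzymes of cholesterol synthesis, and 20 such enzymes were listed after these values had been seen. Msmo1 stood at 127, 22.6, 114 and 59.3 CPM in the population and at 31.0, 53.1, 24.9 and 33.2 CPM in the others. Fdps stood at 158, 18.8, 69.0 and 44.3 CPM, and Insig1, which holds back the sterol sensor, at 174, 48.9, 102 and 83.1 CPM. In each of these 3 genes both PSNL libraries lay below both sham libraries in the population, but in the members with no A, B or C UMI Insig1 was at 217, 51.6, 93.6 and 108 CPM, so that its direction turned in batch 2. The 20 enzymes summed to 953, 316, 824 and 507 CPM in the population and to 408, 634, 394 and 408 CPM in the others. In the population 17 of 20 were lower after PSNL in both batches, beside 22.2% of all genes that were lower and 29.1% that were higher in both, and in the others 1 of 20 was. Since the list followed from the calls of Fdft1, Sc5d and Msmo1, this count partly restates them, and without these 3 it was 14 of 17. PSNL against sham within the population, tested by edgeR without the block, called 0 of the 14 enzymes it could test, and with the block Fdft1, Msmo1, Sc5d and Fdps had adjusted p of 0.0774, 0.0862, 0.114 and 0.211. The test of the interaction called 4 of 20 lower (1 of 17 without these 3) and 0 higher, with a median of -1.11: Fdft1 (-2.29 ± 0.52, adjusted p = 0.00647 in edgeR), Sc5d (-2.16 ± 0.43, 4.57e-04), Msmo1 (-1.87 ± 0.36, 2.22e-04) and Fdps (-1.60 ± 0.38, 0.0114). All 4 were lost with DESeq2. They were also lost without the PSNL library of batch 1, at -1.81 for Fdft1, -1.88 for Sc5d, -1.31 for Msmo1 and -1.05 for Fdps. Fdft1 and Sc5d were lost without the sham library of batch 2 too, at -2.04 and -1.99, and Fdps without the sham library of batch 1, at -1.35. Fdft1 was also lost with D of at least 2, Fdps with D of at least 4, and both without the cells with a Cldn1 or Slc2a1 UMI. In members with no A, B or C UMI none of the 4 was called. Their values there were -2.18 for Fdft1, -1.78 for Sc5d, -1.64 for Msmo1 and -1.29 for Fdps (adjusted p = 0.195, 0.255, 0.0700 and 0.797 in edgeR). Fdft1 overlaps Ctsb on the opposite strand. On the export side, Abca1 stood at 4.78, 67.7, 10.3 and 35.6 CPM, with an interaction of 1.94 ± 0.45 (adjusted p = 0.00781 in edgeR). The call was lost with DESeq2 and with cells of at least 2000 UMIs. It was also lost in the members with no A, B or C UMI, where the interaction was 2.46 (adjusted p = 0.0845 in edgeR) and so no smaller. Without either library of batch 1 the call was lost as well, at 1.58 without the sham and 1.66 without the PSNL library.

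The 250 bases before the start of Msmo1 are printed as an example of this group. They lie at chr8:64733579-64733828 of GRCm38.p6 and are read on the minus strand, with capitals for CCAAT, the letters of the box bound by NF-Y that accompanies sterol elements in many promoters.

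Msmo1: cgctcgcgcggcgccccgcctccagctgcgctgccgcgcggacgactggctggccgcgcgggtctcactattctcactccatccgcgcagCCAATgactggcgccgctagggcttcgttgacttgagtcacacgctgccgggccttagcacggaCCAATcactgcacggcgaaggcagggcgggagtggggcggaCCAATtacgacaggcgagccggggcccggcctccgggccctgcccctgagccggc

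CCAAT occurs 3 times there. Of the 20 enzymes, 15 had a promoter in the table, 18 promoters in all, and 14 of the 18 hold CCAAT on either strand, beside 33.8% of all 32851 promoters. CACGTG, the palindromic E-box, is in 3 of the 18, beside 6.02% of all. The letters describe the windows and say nothing of which factor acts.

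**Figure D5:**
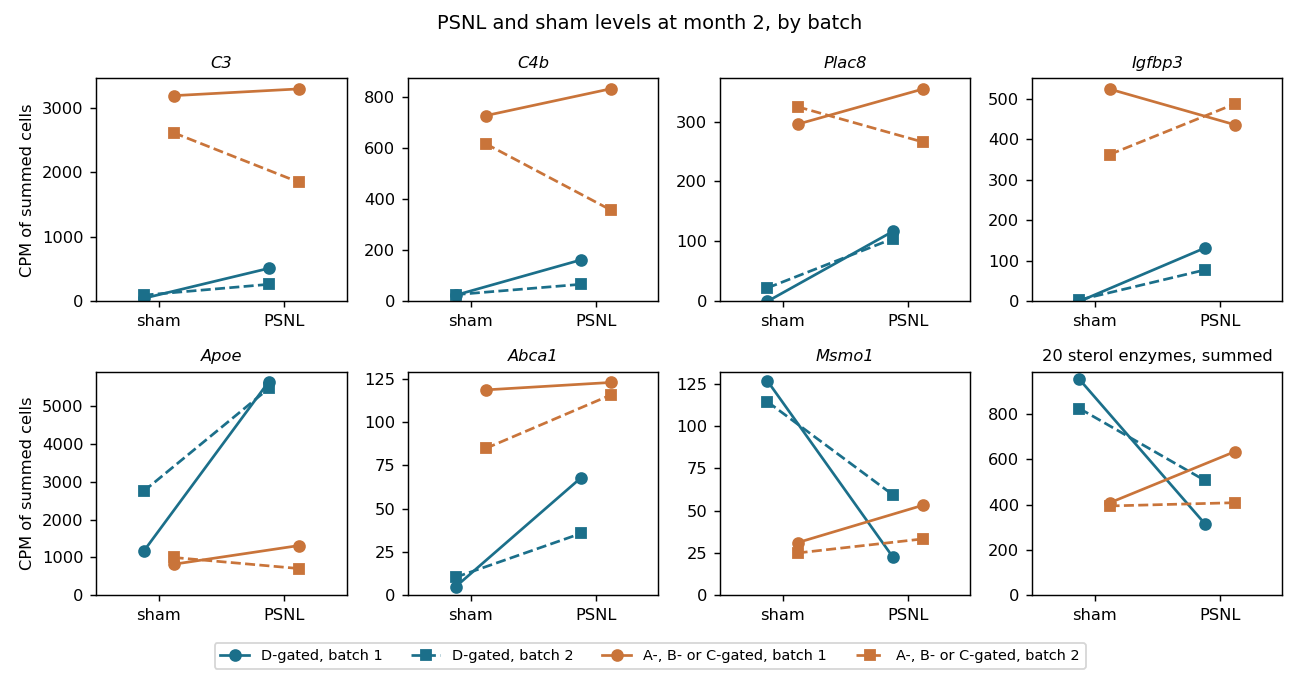
CPM of summed cells in sham and PSNL libraries at month 2, for 7 genes and for the sum of 20 sterol synthesis enzymes; lines join the libraries of a batch (circles batch 1, squares batch 2), in endoneurial-like (D-gated, blue) and in A-, B- or C-gated fibroblasts (orange). C3, C4b, Plac8, Igfbp3, Apoe and Abca1 go up in D-gated cells in both batches, and Msmo1 and the enzyme sum go down, from 953 to 316 and from 824 to 507 CPM.

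A few markers of the population were looked up for PSNL against sham. Apod, Smoc2 and Foxs1 had blocked log2 fold changes of 0.29 ± 0.23, -0.47 ± 0.22 and -0.28 ± 0.23, with an adjusted p in edgeR of 0.870 for Smoc2 and of 0.996 for the others. Spp1, with 0.54 ± 0.22, was not called either (adjusted p = 0.763 in edgeR). A p above the threshold does not show that these levels were the same.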

How the data were processed

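Single-cell UMI counts per gene and barcode were made by the authors with kallisto 0.46.2 and bustools 0.40.0 and deposited as raw, unfiltered count matrices; Seurat 4.3 is also named in the submitters' processing notes, but its output was not used. Per the study's methods reads were mapped to GRCm38, and the annotation release is not given in the sources used here. For this work coordinates were taken from GENCODE vM21 on GRCm38, and 55154 of 55421 gene identifiers were paired with a symbol. Whether reads were counted by strand is not given in the sources used here, so genes that overlap another gene on the opposite strand may share reads with it. Among those chosen by rule these are Gfra1, Chn1, Ctxn3, Rasgrp2, Tenm2, Mfap4, Sfrp2, Aoc3, Emb and Fdft1, and the same holds for many others, such as Angptl7, Smoc2, Col15a1, Vwa1 and Tmem176a.

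From these counts, barcodes were filtered and gated as described in the report, and UMIs were summed per library and class for sums of at least 5 cells. Sums were tested with edgeR 4.0.16 (R 4.3.3; TMM, filterByExpr, quasi-likelihood, Benjamini-Hochberg, threshold 0.05). The endoneurial-like cells were set against A-, B- or C-gated cells with the library as a block. PSNL was set against sham without a block, as planned, and the interaction of class and surgery with the library as a block. In the interaction fit the spread came from the trend over genes and not from the single gene, so very small p-values there are to be read with care. DESeq2 1.42.0, other filters, thresholds and normalizations, and leaving out each library were alternatives. The replicate number is the batch, in which sham and PSNL libraries were sorted, prepared and sequenced together, and batch deviations of sham and PSNL correlated (r = 0.244 over 8410 genes), so blocked values stand beside the results. Shares have 95% Clopper-Pearson intervals and were compared by an exact permutation test.

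Named genes outside the gate were those called, changed the same way in every library or batch and at 20 CPM or more in the higher class: the 12 highest and 8 lowest between classes, up to 8 each way for surgery and up to 5 each way for the interaction. For lists, counts and the highest members are given, and further members were named with their values known. A few results are not reported here. The members and lists were chosen with earlier results of these data known, and the sterol lists after the values were seen. On simulated counts with 200 genes changed 4-fold, the class comparison recovered 200 with 9 false calls (11759 genes), the surgery comparison 143 with 11 (7942 genes) and the interaction 172 with 6 (11922 genes). The changed genes had means above 20 CPM in the endoneurial-like cells, and the simulation held no batch effect, free RNA or mixed cells. These figures therefore do not cover scarcer genes or such effects. Doublets were sought with Scrublet in scanpy 1.11.5 (Python 3.11.15) and not removed.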

Additional observations from a re-analysis of the deposited data

Results flagged for a closer look

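The effect of PSNL differed between the endoneurial-like and the other gated fibroblasts for 41 genes by the interaction test of edgeR. Values are the difference of the log2 fold changes, with the surgery effect in the endoneurial-like cells higher where positive. Igfbp3 had 4.79, Gdf10 3.49, Aoc3 3.24, Emb 3.09 and Plac8 2.85. Without the sham library of batch 2, Igfbp3 had 10.96, Aoc3 7.80, Emb 8.53 and Plac8 10.97. Gdf10 had from 2.29 to 4.55 with 1 library left out. C430049B03Rik had -5.08, Fdft1 -2.29, Sc5d -2.16 and Msmo1 -1.87. Of 16 alternative settings, Igfbp3 was called under 13, Gdf10 under 12, Aoc3 under 8, Emb under 11, Plac8 under 14, C430049B03Rik under 15, Fdft1 under 9, Sc5d under 11 and Msmo1 under 12.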

How the results depend on the processing

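Between the classes, 3467 genes were called, 2334 without the replicate block, and between 2304 and 3333 with 1 library left out. All 320 values of the named genes under 16 alternatives kept their direction and their call. PSNL against sham in the endoneurial-like cells gave 1 call, 3 with DESeq2, 19 with no filter on low sums, 4 with the ambient profile subtracted and 13 with the replicate block. Without the cells that Scrublet marked edgeR gave 0 (217 at an unadjusted p below 0.05), the lost gene being Igfbp3 at 5.08 (adjusted p = 0.0645). Leaving out 1 library gave 1 to 76 calls: 1 without the sham and 19 without the PSNL library of batch 1, and 76 without the sham and 25 without the PSNL library of batch 2. The cause was not tested. The interaction gave 41 calls, 6 with DESeq2, 60 with the ambient profile subtracted (33 of them among the 41), 27 with no filter, 27 with D of at least 4, 19 in members with no A, B or C UMI (15 of them among the 41), 21 without cells with a Cldn1 or Slc2a1 UMI and 0 without the replicate block in edgeR (224 at an unadjusted p below 0.05). It gave 21 without the PSNL library of batch 1 (16 among the 41) and 51 without the sham library of batch 2 (23 among the 41), the range over the libraries left out. Of 144 values of its 9 named genes given here 105 kept their call, 39 kept only the direction and 0 reversed. The difference of the shares was -10.1 percentage points also as the mean of the paired batches, and between -3.68 and -16.5 with 1 library left out; it was negative under every alternative run.

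With 2 pools per group, few cells in the PSNL library of batch 1 (95) and a median of 2283 UMIs there, low genes were measured with few UMIs, and a gene not called is not shown to be equal. The exact test of the shares could not pass 0.05. Each library pooled 4 mice, so the spread between mice was not measured.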

Other observations

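The 871 gated fibroblasts with no class were not empty of the endoneurial genes. Apod in them ranged from 10558 to 15583 CPM over the 4 month 2 libraries, between the 26802 to 40737 CPM of the endoneurial-like cells and the 3459 to 4405 CPM of the C-gated cells, and A-gated cells held 467 to 1203 CPM. Spp1 stood at 466, 331, 580 and 465 CPM in the cells with no class. Foxs1 in them ranged from 82.3 to 138 CPM. These levels are a description, since the gate chose the classes.

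The day 5 PSNL library, 41 cells with no control here, differed in level from the month 2 libraries in several genes. Postn was at 1257 CPM there and at no more than 41.4 CPM at month 2, Spp1 at 2185 CPM against 812 CPM at most, and Wif1 at 94.7 CPM. The other gated fibroblasts of that library were higher as well, with 2328 CPM of Postn against 615 CPM at most at month 2, and 227 CPM of Spp1 against 25.8 CPM at most. The 14 fibroblast activation genes summed to 14985 CPM in the endoneurial-like and 19908 CPM in the other gated fibroblasts at day 5, and to at most 5614 and 8389 CPM at month 2. The 28 genes that marked the other classes summed to 31.6% of their level in those classes, against 2.26% at most at month 2, and 10 of the 41 cells had no A, B or C UMI. The part of these marker genes in the day 5 levels was not tested.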
